A study of Mus musculus with 5 samples.

Results

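Cathepsins are the proteases of the lysosome, and cystatins are the small proteins that inhibit the cysteine-type cathepsins. The 10 genes described here were taken from the count table by symbol and comprise 8 lysosomal cathepsins (Ctsa, Ctsb, Ctsc, Ctsd, Ctsh, Ctsl, Ctss and Ctsz) and 2 cystatins (Cst3 and Cst7), out of 56748 genes. All 10 passed the filter on low counts, which kept 17724 genes for testing. The RNA came from CD11b-positive brain cells of 7-month-old mice, with the cerebellum left out. There were 3 libraries from 5xFAD/Cd5l tg/wt mice (replicates 1, 2 and 3), called Cd5l-transgenic here, and 2 libraries from 5xFAD mice (replicates 1 and 3). All 5 mice carried 5xFAD, a transgenic background that gives amyloid plaques. The Cd5l-transgenic mice also carried mouse Cd5l, a secreted macrophage scavenger-receptor-family protein, under the human PDGF-B promoter, a promoter widely used to express transgenes in neurons. The design also names wild-type mice, but the series holds no sample of them, so the levels below have no plaque-free baseline. The titles number the mice, and nothing else in the labels says how the animals were bred or paired.

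Cathepsins reach the lysosome as inactive precursors, mostly through mannose 6-phosphate receptors, and are activated by the acid of that compartment. They are of several chemical kinds. Cathepsin D is an aspartic protease, cathepsin A is a serine carboxypeptidase, and B, C, H, L, S and Z are cysteine proteases. Microglia, the resident macrophages of the brain, express many of them strongly, and several cathepsins and the cystatin gene Cst7 are known as genes of the microglial state found around amyloid plaques. Cathepsins B and D are among the enzymes able to cut amyloid beta.

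Library totals ran from 30798377 to 34794617 counts. Values below are CPM, the counts of a gene as a share of its library, scaled by TMM, a factor that corrects for the composition of each library. The fewest counts of any of the 10 genes in any library were 14600, where counting error alone is 0.828%, so counting error is small beside most differences between libraries in these 10 genes. Cd5l stood at 234, 335 and 195 CPM in Cd5l-transgenic replicates 1, 2 and 3, against 1.52 and 0.254 CPM in 5xFAD replicates 1 and 3, so the libraries matched their labels. Itgam, which encodes CD11b, lay between 305.5 and 363 CPM with the transgene, against 344 and 355 CPM in 5xFAD. The 10 microglial markers summed to between 26418 and 28461 CPM in Cd5l-transgenic libraries, against 27789 and 26182 CPM in 5xFAD ones. The 6 neuronal markers summed to 2.30 to 8.78 CPM with the transgene, against 2.44 and 1.81 CPM in 5xFAD. Oligodendrocyte markers reached 4043 CPM in Cd5l-transgenic replicate 2, against 328 to 1035 CPM in the other 4 libraries, and choroid plexus and ependymal markers reached 2784 CPM in 5xFAD replicate 3, against 254 to 529 CPM elsewhere. The part of these other cells in the values below was not tested.

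The 10 genes together took 4.43%, 4.57% and 4.32% of all counts in Cd5l-transgenic replicates 1, 2 and 3, against 4.95% and 4.23% in 5xFAD replicates 1 and 3. The transgenic libraries thus lay between the 2 5xFAD libraries. By share of counts, Ctsd ranked 2, Cst3 ranked 3, Ctsb ranked 5 and Ctss ranked 7 among the 17724 tested genes. None of the 10 genes passed the test between the genotypes. In the edgeR quasi-likelihood test 0 of 10 passed after adjustment over all genes, against 0% of all tested genes, and 0 of 10 had an unadjusted p under 0.05, against 2.68% of all tested genes. Cd5l itself, at a log2 fold change of 8.23, did not pass this test either (edgeR adjusted p = 0.765). Not passing therefore does not show that a gene was unchanged. DESeq2 did call Cd5l (Wald test, adjusted p = 5.79e-19), but called 0 of the 10. With limma-voom 0 of the 10 were called too. For 0 of the 10 did the genotypes separate without overlap, against 15.9% of all tested genes (7.2% with all transgenic libraries above and 8.69% with all below). Separation was rarer among abundant genes. Of the 218 with a mean CPM at least that of the lowest of the 10, 6 had all transgenic libraries above and 13 all below. By DESeq2, 0.0752% of the genes with an adjusted p were called. The fold changes ran from -0.35 to 0.0097 on the log2 scale, with a median of -0.10, against a median of -0.027 over all tested genes, and 9 of the 10 lay below 0, against 57.1% of all tested genes. In bulk libraries fewer cells of a type and less RNA per cell cannot be told apart.

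**Figure D1:**
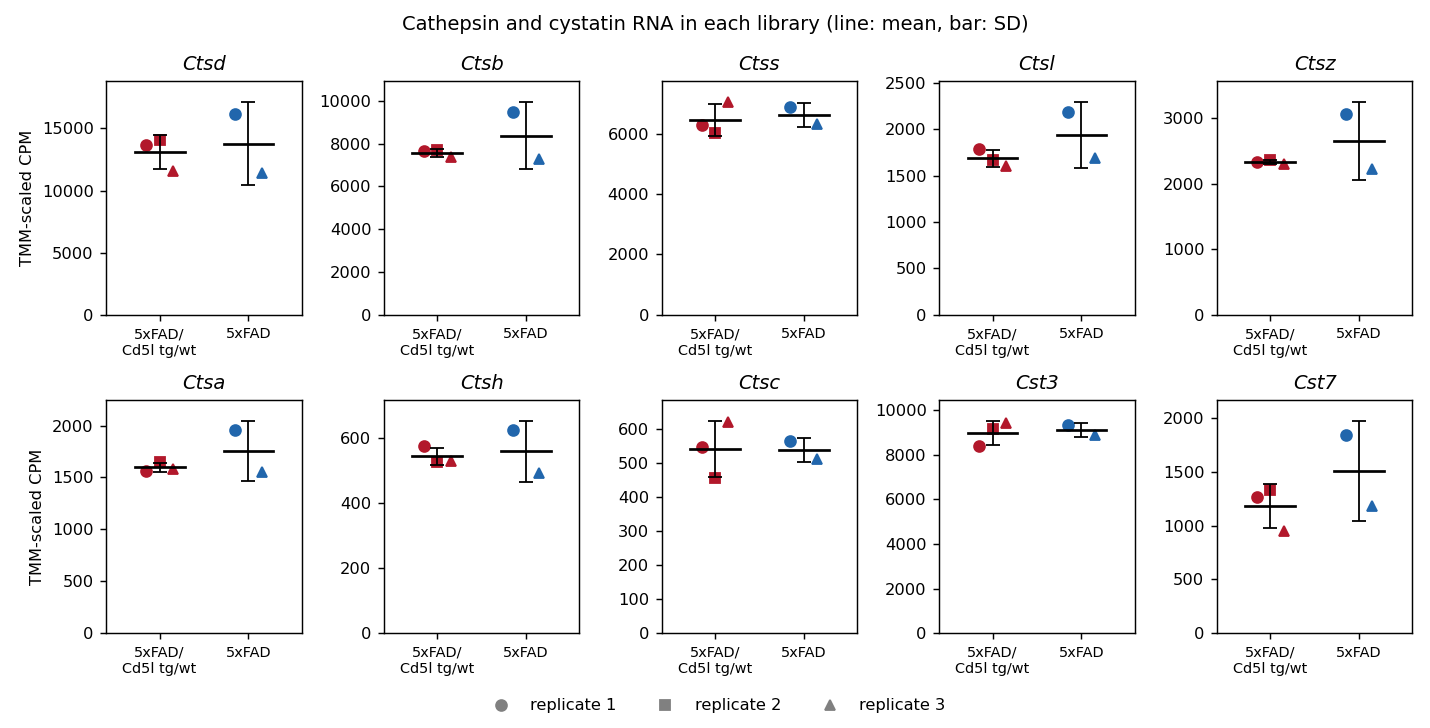
TMM-scaled CPM (vertical axes, from 0) of each gene in the 3 Cd5l-transgenic libraries (red, left) and the 2 5xFAD libraries (blue, right), with the mean and SD of each genotype and the replicate number as marker shape. In no panel do the genotypes separate, and in 7 panels the circle of 5xFAD replicate 1 is the highest point.

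Of the endopeptidases, which cut within protein chains, Ctsd took the largest share of counts, which does not allow for gene length. It encodes cathepsin D (ENSMUSG00000007891, chromosome 7, 141929648 to 141941775, minus strand, GRCm39), the main aspartic protease of lysosomes. It stood at 13685, 14068 and 11579 CPM in Cd5l-transgenic replicates 1, 2 and 3, against 16128 and 11408 CPM in 5xFAD replicates 1 and 3. Both 5xFAD libraries lay outside the transgenic ones, 1 above and 1 below them. The log2 fold change was -0.071 (SE 0.20, 95% interval -0.55 to 0.41, edgeR adjusted p = 0.999).

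Ctsb (chromosome 14, 63359911 to 63383372) encodes cathepsin B, a cysteine protease that can also remove dipeptides from the carboxyl end. Its values were 7648, 7683 and 7363 CPM in Cd5l-transgenic replicates 1, 2 and 3, against 9472 and 7263 CPM in 5xFAD replicates 1 and 3. The transgenic mice were nearly alike, the highest only 1.04 times the lowest, while the 5xFAD mice differed 1.3-fold. The log2 fold change was -0.15 (SE 0.15, 95% interval -0.52 to 0.23). Ctsl (chromosome 13, 64507151 to 64518704) encodes cathepsin L, an endopeptidase with broad specificity. It stood at 1788, 1669 and 1610 CPM with the transgene, against 2188 and 1687 CPM in 5xFAD replicates 1 and 3. Cd5l-transgenic replicates 2 and 3 lay below both 5xFAD libraries and replicate 1 lay between them, for a log2 fold change of -0.20 (SE 0.14, 95% interval -0.55 to 0.15).

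Ctss (chromosome 3, 95434097 to 95463714) encodes cathepsin S, which stays active at neutral pH and trims the invariant chain during antigen presentation. It stood at 6298, 6005 and 7039 CPM in Cd5l-transgenic replicates 1, 2 and 3, against 6888 and 6322 CPM in 5xFAD replicates 1 and 3. The highest value was that of Cd5l-transgenic replicate 3 and the lowest that of replicate 2, so the transgenic libraries spanned both 5xFAD ones. Its log2 fold change was -0.035 (SE 0.13, 95% interval -0.36 to 0.29).

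The exopeptidases trim proteins from their ends. Ctsz (chromosome 2, 174269286 to 174280832) encodes cathepsin Z, a carboxypeptidase that removes single residues. It stood at 2336, 2363 and 2301 CPM in Cd5l-transgenic replicates 1, 2 and 3, against 3067 and 2228 CPM in 5xFAD replicates 1 and 3. The transgenic libraries differed only 1.03-fold and all lay between the 5xFAD libraries, which differed 1.38-fold. The log2 fold change was -0.18 (SE 0.16, 95% interval -0.56 to 0.20).

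Ctsa (chromosome 2, 164674793 to 164682952) encodes cathepsin A, a carboxypeptidase that also protects the sialidase Neu1 and beta-galactosidase in the lysosome. It stood at 1564, 1647 and 1585 CPM with the transgene, against 1960 and 1549 CPM in 5xFAD replicates 1 and 3. Here too the 3 transgenic libraries lay between the 5xFAD ones, with a log2 fold change of -0.13 (SE 0.13, 95% interval -0.45 to 0.19). Pltp, which overlaps Ctsa on the other strand, held 8.58% as many counts as Ctsa. The sources used here do not give the strand setting of the counting, so whether reads of the overlap were told apart is unknown.

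Ctsh (chromosome 9, 89936205 to 89958142) encodes cathepsin H, mainly an aminopeptidase. Its values were 574, 525 and 530 CPM in Cd5l-transgenic replicates 1, 2 and 3, against 624 and 492 CPM in 5xFAD replicates 1 and 3. All transgenic values again fell within the 5xFAD range, at a log2 fold change of -0.040 (SE 0.13, 95% interval -0.35 to 0.27). Ctsc (chromosome 7, 87927293 to 87960096) encodes cathepsin C, a dipeptidyl peptidase known for activating the serine proteases of immune cell granules. It stood at 548, 458 and 623 CPM with the transgene, against 565 and 514 CPM in 5xFAD replicates 1 and 3. The spread was larger among the transgenic mice, 1.36-fold, than between the 5xFAD mice, 1.1-fold. Of the 10 genes it alone had a log2 fold change above 0, at 0.0097 (SE 0.15, 95% interval -0.35 to 0.37), and this became -0.037 when libraries were scaled to the microglial markers.

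Both cystatin genes lie on chromosome 2, and their levels across mice differed in spread. Cst3 (148713642 to 148717612) encodes cystatin C, a secreted inhibitor that is abundant in brain fluid and tissue. It was the steadiest of the 10 genes, at 8369, 9156 and 9396 CPM in Cd5l-transgenic replicates 1, 2 and 3, against 9304 and 8892 CPM in 5xFAD replicates 1 and 3. The transgenic libraries spanned both 5xFAD values, and the log2 fold change was -0.020 (SE 0.13, 95% interval -0.33 to 0.29).

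Cst7 (150412335 to 150420864) encodes cystatin F, an inhibitor that is sent to the endosomes and lysosomes of immune cells, where it acts on cathepsins C and L among others. It had the largest fold change and the widest interval of the 10. It stood at 1268, 1334 and 948 CPM in Cd5l-transgenic replicates 1, 2 and 3, against 1836 and 1177 CPM in 5xFAD replicates 1 and 3. Cd5l-transgenic replicate 3 was the lowest library and 5xFAD replicate 1 the highest, while the other 3 libraries lay between 1177 and 1334 CPM. The means were 1183 ± 206 CPM (SD, n = 3) with the transgene and 1506 ± 466 CPM (SD, n = 2) in 5xFAD, and the log2 fold change was -0.35 (SE 0.24, 95% interval -0.94 to 0.24, edgeR adjusted p = 0.999).

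Ratios within a library do not depend on how libraries are scaled. Cst7 had 2.31, 2.91 and 1.52 counts for each count of Ctsc, its known target, in Cd5l-transgenic replicates 1, 2 and 3, against 3.25 and 2.29 in 5xFAD replicates 1 and 3. The log2 ratio differed by -0.33 between the genotypes (exact two-sided permutation test, p = 0.6, where the smallest p that 3 against 2 libraries allow is 0.2). Cst7 had 0.152, 0.146 and 0.101 counts for each count of Cst3 with the transgene, against 0.197 and 0.132 in 5xFAD replicates 1 and 3. That log2 ratio differed by -0.31 (exact two-sided permutation test, p = 0.6, smallest possible 0.2). For both ratios Cd5l-transgenic replicate 3 was the lowest and 5xFAD replicate 1 the highest library.

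The 2 5xFAD mice differed from each other more than the transgenic mice did for 7 genes, and less for Ctsc, Ctss and Cst3. For all 10 genes these 2 mice differed by more than the fitted fold change between the genotypes, and for 6 of 10 the range over the transgenic mice was also larger than that fold change. 5xFAD replicate 1 was the highest library for 7 genes (Ctsa, Ctsb, Ctsd, Ctsh, Ctsl, Ctsz and Cst7), and Cd5l-transgenic replicate 3 was the highest for Ctsc, Ctss and Cst3. Among all tested genes 24.1% were highest in 5xFAD replicate 1. Among the 218 with a mean CPM at least that of the lowest of the 10 genes, 45.4% were. 5xFAD replicate 3 was the lowest library for 5 of the 10, against 73 of those 218 and 2896 of all 17724 tested genes. For 5 genes (Ctsa, Ctsb, Ctsd, Ctsh and Ctsz) every transgenic library lay inside the range of the 5xFAD libraries.

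Which 5xFAD mouse was used decided the sign of the fold changes. Without 5xFAD replicate 1 all 10 log2 fold changes were above 0, from 0.0035 for Ctsl to 0.20 for Ctsd, with a median of 0.054. Without 5xFAD replicate 3 all 10 were below 0, from -0.64 for Cst7 to -0.054 for Cst3, with a median of -0.30. Each of these fits has a single 5xFAD library, which is assumed to vary like the transgenic ones, and in neither did any of the 10 pass (edgeR, lowest adjusted p = 0.858, for Ctsz). Without 5xFAD replicate 1, 0 of 10 had an unadjusted p under 0.05, against 6.68% of all genes in that fit. Without 5xFAD replicate 3, 5 of 10 did (Ctsa, Ctsb, Ctsl, Ctsz and Cst7), against 4.86% of all genes in that fit, and these 5 genes were highest in the 5xFAD library that remained.

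**Figure D2:**
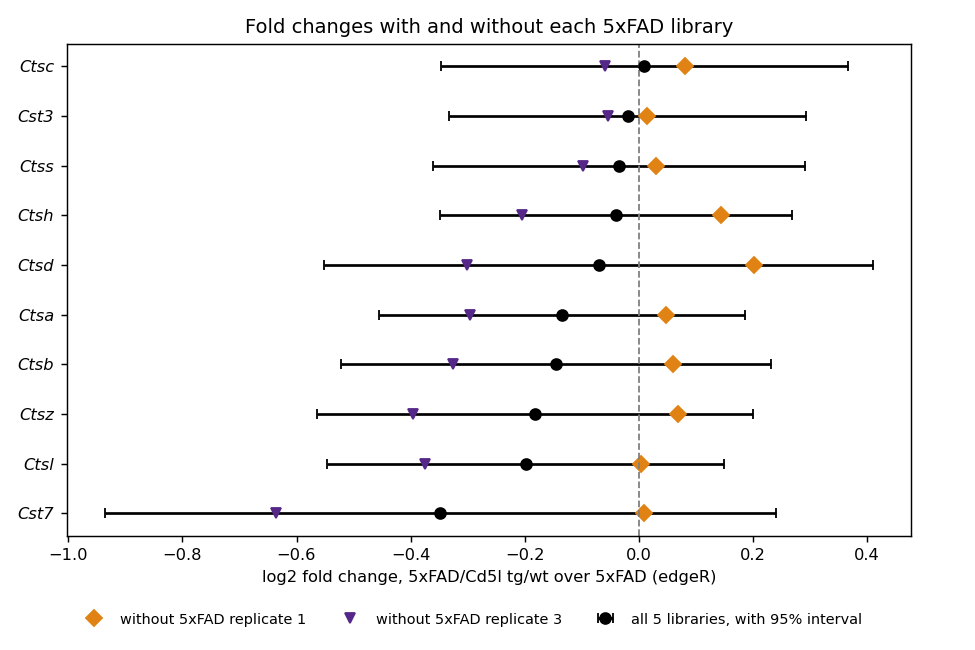
Log2 fold change of each gene, Cd5l-transgenic over 5xFAD (horizontal axis), in the edgeR fit with all 5 libraries (black, with 95% interval) and without 5xFAD replicate 1 (orange) or 5xFAD replicate 3 (purple). All 10 intervals include 0, all orange points lie above 0 and all purple points below 0.

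Most genes of the plaque-associated microglial state were also highest in 5xFAD replicate 1. So were 24.1% of all tested genes and 4 of the 6 myeloid surface markers. The share was 45.4% of the 218 genes with a mean CPM at least that of the lowest of the 10. Of the 10 marker genes of that state, 9 were highest there, and their sum was 7110, 6532 and 6742 CPM in Cd5l-transgenic replicates 1, 2 and 3, against 13068 and 6532 CPM in 5xFAD replicates 1 and 3. Spp1, which encodes osteopontin, stood at 744, 586 and 461 CPM with the transgene, against 2766 and 603 CPM in 5xFAD replicates 1 and 3. No marker of that list was at 0. The summed cathepsins stood at 34440, 34418 and 32630 CPM with the transgene, against 40892 and 31462 CPM in 5xFAD replicates 1 and 3. They differed less than the marker sum, in which markers with large differences weigh most. Spp1 had the largest fold change of the 10 markers. The median centred log2 CPM of the markers was 0.44 and -0.19 in 5xFAD replicates 1 and 3. For the 10 cathepsin and cystatin genes it was 0.26 and -0.10. The part of this state in the cathepsin values was not tested.

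**Figure D3:**
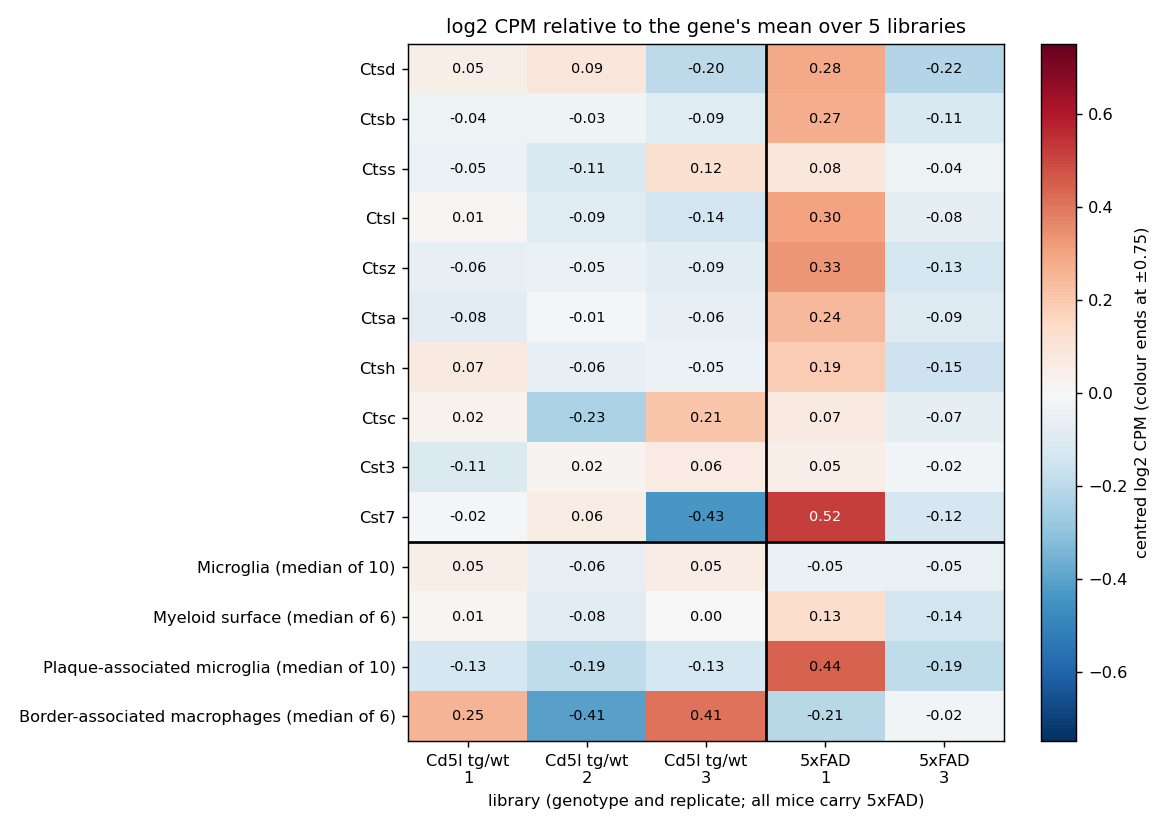
Log2 CPM of each gene relative to its mean over the 5 libraries (colour and printed number), and below the line the median over 4 lists of marker genes, with Cd5l-transgenic libraries left and 5xFAD libraries right. 5xFAD replicate 1 is highest for Cst7 (0.52), Ctsz (0.33), Ctsl (0.30), Ctsd (0.28), Ctsb (0.27), Ctsa (0.24) and Ctsh (0.19). It is also highest for the plaque-associated (0.44) and myeloid surface (0.13) lists, and not for the microglial (-0.052) and border-associated (-0.21) lists.

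Variation over the 5 libraries differed widely within the family. The SD of log2 CPM over the 5 libraries was 0.345 for Cst7, 0.209 for Ctsd and 0.187 for Ctsz, and 0.0671 for Cst3. Of the genes that averaged 20 CPM or more, 94.9% had a smaller SD than Cst7 and 21.3% a smaller SD than Cst3. For the 3 most variable genes, the other genes with the most similar profile were found by the root mean square difference of centred log2 CPM over the 5 libraries, among 7249 genes. This distance describes the 5 libraries and carries no test. Cst7 was nearest to Arhgap24 (0.030), then Crlf2, Cd200r4, Asb10 and Gyg (0.048 to 0.074). Arhgap24 stood at 56.1, 55.6 and 39.9 CPM with the transgene, against 77.3 and 50.2 CPM in 5xFAD replicates 1 and 3, the same order as Cst7 except that Cd5l-transgenic replicates 1 and 2 changed places. Ctsd was nearest to Uqcr11 (0.025), Slc38a10, Ap1s1, Npc2 and Rabac1. Npc2 encodes a cholesterol-binding protein of the lysosome. It stood at 1270, 1266 and 1087 CPM with the transgene, against 1434 and 1082 CPM in 5xFAD replicates 1 and 3. Ctsz was nearest to Plin2 (0.024), Timp2, Il11ra1, Ctsb and Ssx2ip, of which Ctsb, at a distance of 0.031, is another cathepsin gene.

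Levels of different genes can be compared only per length. Per kilobase of the authors' gene length, Cst3 was the highest, at 7088 ± 424 CPM per kilobase (SD, n = 3) with the transgene and 7187 ± 230 (SD, n = 2) in 5xFAD. Ctsd followed at 5577 ± 569.97 and 5856 ± 1420 CPM per kilobase, and Ctss at 4748 ± 392 and 4864 ± 295 CPM per kilobase, each with the transgenic value first. The order then ran Ctsz, Cst7, Ctsb, Ctsa, Ctsl, Ctsh and Ctsc, down to 93.5 ± 14.2 and 92.9 ± 6.21 CPM per kilobase for Ctsc. Neighbours in this order whose ranges over the 5 libraries overlapped were Cst3 and Ctsd, Ctsd and Ctss, Ctsz and Cst7, Cst7 and Ctsb, and Ctsa and Ctsl. In Cd5l-transgenic replicate 3 Ctss exceeded Ctsd, and in Cd5l-transgenic replicate 3 and 5xFAD replicate 3 Ctsb exceeded Cst7. The other places were the same in all 5 libraries.

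The lengths decide part of that order. The authors' length of Ctsl, 6489 bases, is 3.29 times that of its longest well-supported transcript in GENCODE M21 (1971 bases), and for Ctsh the ratio is 2.78. With the lengths of such transcripts, an alternative chosen after seeing the data, Cst3, Ctsd, Ctss and Ctsz stayed the highest in that order, Ctsb came before Cst7, and Ctsl came before Ctsa, at a mean of 907 CPM per kilobase in place of 276.

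**Figure D4:**
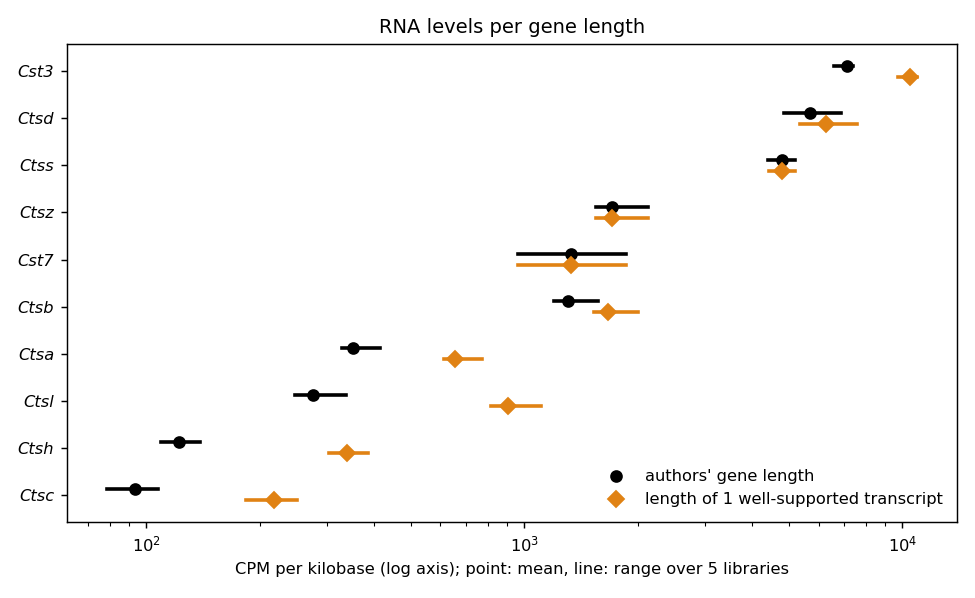
CPM per kilobase on a log axis for each gene, as the mean (point) and range (line) over all 5 libraries, with the authors' gene length (black) and with the length of 1 well-supported transcript (orange). The places of Cst3, Ctsd, Ctss and Ctsz do not depend on the length used, while Ctsl shifts from 276 to 907 CPM per kilobase.

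Promoter sequences show which of these genes carry the short palindrome CACGTG near their start. This hexamer is the core of the site bound by TFEB and TFE3, the main transcription factors of lysosomal genes. The 250 bases before the start were taken from RefSeq (GRCm38.p6, a different build from that of the counts), where 8 of the 10 genes matched by symbol with 9 start sites, all but Ctsb and Ctsh. The hexamer, which reads the same on both strands, was found before 3 of the 9 starts, those of Ctsd, Ctsa and Ctsl, and before 6.02% of all 32851 starts in the table. Among the 15292 starts of tested genes the share was 7.79%. Ctsd had 2 matches, as had 0.429% of all starts counting those with 2 or more. Capitals mark the match in the stretches around it, which are given 5′ to 3′ on the strand of the gene.
Ctsd, chr7:142387905-142388077, minus strand: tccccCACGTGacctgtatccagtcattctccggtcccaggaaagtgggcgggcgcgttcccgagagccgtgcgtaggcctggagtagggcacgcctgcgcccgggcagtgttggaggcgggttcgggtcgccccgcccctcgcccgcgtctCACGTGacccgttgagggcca
Ctsa, chr2:164833746-164833772, plus strand: caatgagcaaactgtCACGTGatgcag
Ctsl, chr13:64370736-64370770, minus strand: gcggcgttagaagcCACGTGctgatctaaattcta
The match lay 12 bases before the start of Ctsa, 236 before that of Ctsl, and 245 and 98 before that of Ctsd.

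Cst7 had no CACGTG in this window. AGGAAGT, a sequence of the kind bound by ETS factors such as PU.1, the factor of the myeloid lineage, was searched as AGGAAGT and its reverse complement ACTTCCT, and was found before the starts of Cst7 and Ctsc and of 7.69% of all starts. Among starts of tested genes the share was 7.59%. Both motifs were chosen after the promoters had been seen, and a match is a description of letters, not a binding site.
Cst7, chr2:150570337-150570373, plus strand: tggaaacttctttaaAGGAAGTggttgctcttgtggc
Ctsc, chr7:88277919-88277955, plus strand: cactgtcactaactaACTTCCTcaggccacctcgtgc

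The genes around this family in the lysosomal pathway did not pass the test either. Of 12 other lysosomal peptidases 0 passed and 8 lay below 0, with a median log2 fold change of -0.020. Lgmn, the asparaginyl protease that activates several cathepsins, averaged 2253 CPM with the transgene and 2272 CPM in 5xFAD, at a log2 fold change of -0.012. The smallest unadjusted p was that of Napsa, an aspartic protease, which was low in every library. Napsa stood at 3.43, 2.35 and 2.48 CPM in Cd5l-transgenic replicates 1, 2 and 3, against 1.05 and 1.55 CPM in 5xFAD replicates 1 and 3, without overlap (log2 fold change 1.08, SE 0.35, edgeR adjusted p = 0.999). All transgenic libraries lay above both 5xFAD ones for 2 of the 12 peptidases, against 7.2% of all tested genes. Ctse, the aspartic protease cathepsin E, stood at 60.2, 50.7 and 45.6 CPM with the transgene, against 79.5 and 49.2 CPM in 5xFAD replicates 1 and 3, again with 5xFAD replicate 1 the highest.

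Of the other inhibitors of cysteine proteases, 14 of 15 symbols were found in the table and 4 passed the filter on low counts. None of the 4 passed the test. Cstb, which encodes the intracellular inhibitor cystatin B, stood at 32.9, 32.5 and 36.8 CPM in Cd5l-transgenic replicates 1, 2 and 3, against 43.4 and 33.3 CPM in 5xFAD replicates 1 and 3 (log2 fold change -0.17, SE 0.13). Ctla2b, related to cathepsin propeptides, was at 2.17, 1.98 and 1.79 CPM with the transgene, against 2.51 and 2.31 CPM in 5xFAD, without overlap. Of all tested genes 8.69% also had all transgenic libraries below both 5xFAD ones, against 1 of these 4. Ctla2b was low in every library. It had only 67, 63 and 59 counts in Cd5l-transgenic replicates 1, 2 and 3, against 74 and 82 counts in 5xFAD replicates 1 and 3. It shares sequence with Ctla2a, so its count may depend on how common reads were assigned.

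Sorting receptors and partners of lysosomal enzymes were measured for all 14 listed genes, of which 0 passed and 11 lay below 0 (median -0.031). M6pr, a mannose 6-phosphate receptor, averaged 313 CPM in both genotypes. Neu1, the sialidase that needs cathepsin A, stood at 81.6, 81.3 and 77.8 CPM in Cd5l-transgenic replicates 1, 2 and 3, against 93.6 and 84.4 CPM in 5xFAD replicates 1 and 3. Sort1, the sorting receptor sortilin, stood at 334, 351 and 324 CPM with the transgene, against 307 and 308 CPM in 5xFAD. Both separated the genotypes without overlap, in opposite directions, at log2 fold changes of -0.15 (SE 0.075) for Neu1 and 0.13 (SE 0.080) for Sort1. They were the only genes of the 14 to do so, against 15.9% of all tested genes. Both were named for the smallest p of their list, so their separation is no further evidence.

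Of the 11 regulators of lysosomal genes 0 passed and 7 lay below 0 (median -0.084). Rragd, a Rag GTPase that is itself a known target of TFEB, had the smallest unadjusted p of all pathway genes looked at here, 0.00824. It stood at 33.0, 37.7 and 32.6 CPM in Cd5l-transgenic replicates 1, 2 and 3, against 52.6 and 42.6 CPM in 5xFAD replicates 1 and 3, for a log2 fold change of -0.47 (SE 0.12, edgeR adjusted p = 0.999). Mcoln1, the lysosomal calcium channel, stood at 101, 108 and 107 CPM with the transgene, against 125 and 117 CPM in 5xFAD replicates 1 and 3 (log2 fold change -0.20, SE 0.071). Both genes were lower in all 3 transgenic libraries than in both 5xFAD ones, as were 8.69% of all tested genes. Such a separation leaves the sign all but fixed when 1 library is left out, so a kept sign adds no support. The fold changes then ran from -0.61 to -0.30 for Rragd and from -0.25 to -0.15 for Mcoln1. Tfeb itself averaged 43.5 CPM with the transgene and 46.1 CPM in 5xFAD, at a log2 fold change of -0.084.

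Antigen presentation, where cathepsin S and the thiol reductase Ifi30 work, was measured with 8 genes, of which 0 passed and 4 lay below 0. For 7 of the 8 the lowest library was Cd5l-transgenic replicate 2. Ciita, the activator of MHC class II genes, stood at 15.6, 4.61 and 14.6 CPM in Cd5l-transgenic replicates 1, 2 and 3, against 4.81 and 7.45 CPM in 5xFAD replicates 1 and 3. Ifi30 stood at 89.1, 75.8 and 90.5 CPM with the transgene, against 85.6 and 70.9 CPM in 5xFAD replicates 1 and 3. In both genes Cd5l-transgenic replicates 1 and 3 were the highest libraries, above Cd5l-transgenic replicate 2, which lay within the 5xFAD range for Ifi30 and just below it for Ciita. Cd5l-transgenic replicate 2 was also the lowest library for Ctss and Ctsc, 2 of the 10 genes. The same library was the lowest for 4908 of all 17724 tested genes. Among the 218 with a mean CPM at least that of the lowest of the 10 genes, it was the lowest for 81. Border-associated macrophage markers, all 6 of which were tested, summed to 321, 203 and 372 CPM in Cd5l-transgenic replicates 1, 2 and 3, against 232 and 272 CPM in 5xFAD replicates 1 and 3. The sum was highest in Cd5l-transgenic replicate 3 and lowest in replicate 2, which was the lowest library for 3 of the 6 markers. The part of those cells in the values was not tested.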

How the data were processed

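The 10 genes and the lists were chosen with earlier results of these data known. Whole-number counts per Ensembl gene were used as deposited by the authors, with no normalisation and 1 column per library. Per the submitters' processing notes the genome build was GRCm39. The sources used here do not give the aligner, counting tool, annotation or strand setting. The gene length column is the authors' own. The column of Cd5l-transgenic replicate 3 reverses the 2 letter pairs found in that library's name, and was matched on letters and number.

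Genes were filtered with filterByExpr (17724 kept), scaled by TMM and tested with the quasi-likelihood test of edgeR 4.0.16 (robust, genotype alone) under R 4.3.3, with Benjamini-Hochberg adjustment over all tested genes and a threshold of 0.05. Standard errors were derived from the fold change and F statistic, and 95% intervals from t quantiles. The edgeR p-values set the genotype difference against the spread between these mice, with the spread of each gene moderated across genes. The permutation p-values compare the observed split of the 5 libraries with all 10 possible splits. Ratios were tested with scipy 1.17.1. Scripts were tested on simulated data. Alternatives were size factors of DESeq2, upper-quartile factors, scaling to microglial markers, the DESeq2 1.42.0 Wald test, limma-voom (3.58.1) with sample weights, 2 other filters, a replicate block, and fits without each library in turn. All 10 genes are named, with 2 genes per pathway list by smallest p, the 5 genes most alike to each of the 3 most variable ones, Cd5l as the transgene, and Lgmn, M6pr, Tfeb and Spp1, chosen after their values were seen.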

Additional observations from a re-analysis of the deposited data

How the results depend on the processing

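The count of 0 of the 10 genes past the threshold, and of 0 genes in the pathway lists, held under every alternative run. Of 80 fold changes of the 10 genes under the 8 alternatives that kept all libraries, 76 kept their sign. The 4 others were Ctsc at -0.037 when scaled to microglial markers, Ctsh at 0.0097 in limma-voom, Ctss at 0.013 with the replicate number as a block and Cst3 at 0.013 with the filter of 5 CPM in 2 libraries. Over all genes, the test called 0 in the edgeR fit, 11 in DESeq2 and 1 (Igfbp5) without the low-count filter, and 0 to 9 with 1 library left out. Of these, 9 came without 5xFAD replicate 1 and 2 (Atp6v0d2 and Rpl30-ps10) without 5xFAD replicate 3. At an unadjusted p under 0.05 edgeR had 217 genes higher and 258 lower. Replicates 1 and 3 occur in both genotypes, but nothing in the labels pairs the mice, and deviations of same-numbered libraries correlated at 0.205 for number 1 and -0.229 for number 3. With only 2 5xFAD libraries, their deviations from the mean mirror each other, so these values can neither show nor exclude pairing. The highest value, 0.315, was that of Cd5l-transgenic replicate 2 with 5xFAD replicate 3. With the replicate block the median of the 10 genes was -0.13 and no gene was called.

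With 1 library left out, the median log2 fold change of the 10 genes ran from -0.30 to 0.054. The ranges were -0.30 to 0.047 for Ctsa, -0.33 to 0.060 for Ctsb, -0.082 to 0.13 for Ctsc, -0.30 to 0.20 for Ctsd, -0.20 to 0.14 for Ctsh, -0.38 to 0.0035 for Ctsl, -0.097 to 0.030 for Ctss, -0.40 to 0.068 for Ctsz, -0.054 to 0.028 for Cst3 and -0.64 to 0.0095 for Cst7. They were -0.61 to 0.085 for Ctse, -0.35 to 0.035 for Cstb and -0.0094 to 0.27 for Ifi30. The log2 ratio of Cst7 to Ctsc ran from -0.58 to -0.072 and that of Cst7 to Cst3 from -0.595 to -0.019. Besides the fits without a 5xFAD library, the sign among the 10 genes also changed for Ctsc (-0.082) and Ctsd (0.030) without Cd5l-transgenic replicate 3, for Ctss (0.027) without replicate 2 and for Cst3 (0.028) without replicate 1. The 95% intervals, not the counts, limit the precision, and reach from -0.94 to 0.24 for Cst7. Per kilobase levels with transcript lengths were an alternative chosen after seeing the data.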

Other observations

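Some relatives of these genes had few or no counts in every library. Ctsk, which encodes the bone and macrophage protease cathepsin K and lies near Ctss on chromosome 3, stood at 0.549, 1.22 and 0.575 CPM in Cd5l-transgenic replicates 1, 2 and 3, against 0.712 and 0.480 CPM in 5xFAD replicates 1 and 3. Ctsw, a cathepsin of cytotoxic lymphocytes, stood at 2.36, 1.69 and 2.21 CPM with the transgene, against 1.52 and 1.64 CPM in 5xFAD. The genotypes did not overlap for Ctsw, as for 15.9% of all tested genes, and overlapped for Ctsk. Neither passed the edgeR test (adjusted p = 0.999 each). Csta1, Csta2, Csta3, Stfa2 and Stfa3, genes of intracellular stefins known from neutrophils, had 0 counts in all 5 libraries, which allows up to 0.0847 to 0.102 CPM in a library for counting error alone. Stfa1 had 7 counts in 5xFAD replicate 3 and 0 in the other libraries. These genes are near copies of each other, so their counts are uncertain.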
